A study of Mus musculus with 4 samples.

Results

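Pericentral and periportal hepatocyte nuclei were compared in 1 single-nucleus ATAC-Seq (scATAC-Seq) library, made 96 h after partial hepatectomy (PHx), an operation that takes out some of the liver lobes. The library held 4899 deposited barcodes, of which 2484 had at least 2000 counts in peaks. The nuclei were chosen by their own counts over marker genes: for each, counts were summed over 5 pericentral marker genes (Cyp2e1, Cyp1a2, Cyp2a5, Glul and Slc1a2) and over 6 periportal marker genes (Cyp2f2, Hal, Gls2, Hsd17b6, Sds and Amdhd1), each taken as the gene body and 2000 bp upstream. A total of 1487 nuclei had at least 4 marker counts. The 437 nuclei with a pericentral share of marker counts of at least 0.6 were called pericentral, the 500 with a share of at most 0.2 periportal, and the other 550 intermediate. The classes compared thus held 937 nuclei, out of 20217 barcodes deposited for the whole series.

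In scATAC-Seq a transposase cuts DNA where chromatin is open, and the barcode of a droplet assigns each fragment to a nucleus. The series has 4 libraries of mouse liver hepatocytes, 1 from undamaged liver (0 h) and 1 each from 48, 72 and 96 h after PHx. All mice were on a normal diet and 10 to 12 weeks old per the labels, and hepatocytes of all 4 libraries were isolated by collagenase perfusion. The mice were male C57BL/6J, and the sources used here do not give whether the 96 h library pooled several animals. With 1 library per time point there was no replicate, so no test was made and no p-value is given. All 95% intervals cover counting error only. Those of CPM and of ratios were computed on counts divided by 2, because most fragments add a count at each end, and treat fragments as independent molecules.

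Hepatocytes divide their labour along the liver lobule, a pattern called zonation. Those around the portal tract, which receive blood rich in oxygen and hormones first, are known for urea production, amino acid breakdown and glucose production. Those around the central vein, where Wnt and beta-catenin signaling is active, are known for glutamine synthesis, bile acid synthesis and P450-dependent detoxification.

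Most nuclei lay at the ends of the marker share or at a share of 0.5. A share of exactly 0 was found in 411 of the 500 periportal nuclei, and a share of exactly 1 in 152 of the 437 pericentral nuclei. Another 236 nuclei had a share of exactly 0.5, as few marker counts allow few values of the share: the median marker count was 8, 7 and 6 in pericentral, intermediate and periportal nuclei, and 66, 168 and 185 of them had exactly 4. At the pericentral limit, 40 nuclei had a share of 0.6 and the nearest nucleus outside had 0.595. At the periportal limit, 33 nuclei had a share of 0.2 and the nearest outside had 0.214. The classes are therefore ranges of a score, with 416 nuclei between 0.5 and 0.7 and 179 between 0.1 and 0.3.

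**Figure D1:**
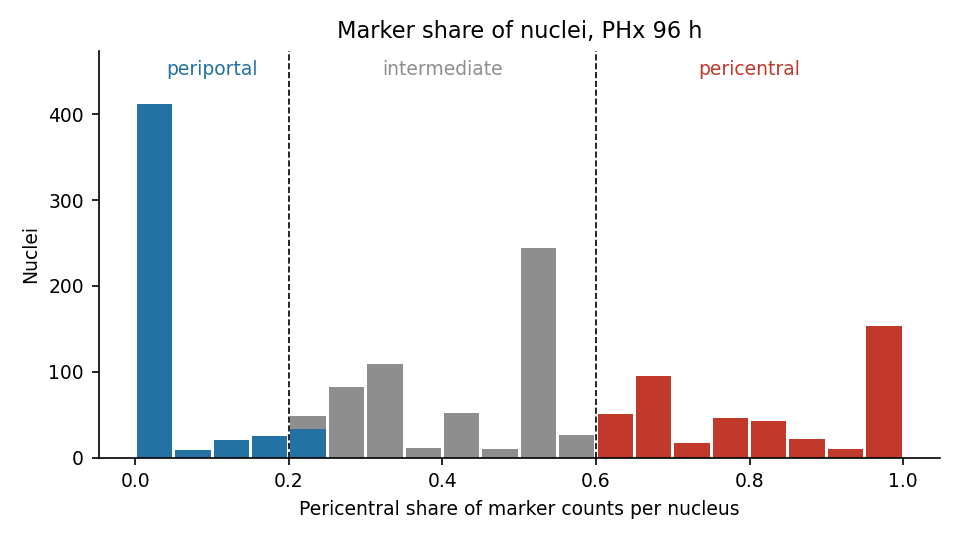
Number of nuclei (y axis) by pericentral share of marker counts (x axis, bins of 0.05) at 96 h, coloured by class, with dashed lines at the limits of 0.2 and 0.6. Of the 1487 nuclei, 411 periportal nuclei had a share of exactly 0, 236 intermediate nuclei a share of exactly 0.5, and 152 pericentral nuclei a share of exactly 1.

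The marker genes chose the classes, so their values are a description. In pericentral nuclei, counts over Cyp2e1, a P450 that oxidizes ethanol and other small molecules, came to 548 CPM (counts per 1000000 counts outside the marker peaks), against 13.9 CPM in periportal nuclei. Glul, the glutamine synthetase that binds ammonia, had 335.8 and 20.9 CPM, and Slc1a2, a glutamate transporter, had 145 and 21.3 CPM. Hal, the first enzyme of histidine breakdown, had 96.3 CPM in pericentral and 676.9 CPM in periportal nuclei. Gls2, the liver glutaminase, had 52.6 and 182 CPM. Cyp2e1 and Hal gave the most marker counts of their lists, 2728 and 3877 in all nuclei of the library with at least 2000 counts, so they weighed most in the classes. Cyp2a5 had no peak at 96 h and added nothing.

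Pericentral nuclei had more counts in peaks than periportal nuclei. The median count was 6609 (quartiles 4719 and 9175) in pericentral, 5899 in intermediate and 4892 (quartiles 3666.5 and 7269.5) in periportal nuclei. Levels are therefore given as CPM, and the main gene lists were also compared within ranges of depth. The share of counts in promoter peaks was 46.2% and 44.8% in pericentral and periportal nuclei. Only 2 and 3 nuclei of these classes had more counts over endothelial, immune and stellate markers than over hepatocyte markers.

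Most genes outside the rule with a known place in the lobule had a ratio in the direction of their zone. Of 36 pericentral genes that the rule did not use, 24 had at least 300 counts in both classes together, and 22 of these had a log2 ratio of pericentral over periportal nuclei above 0, with a median of 0.31. That median was 0.50 with a minimum of 8 marker counts per nucleus, and nearer 0 in promoter peaks alone. Of 36 periportal genes, 29 met the minimum and 23 had a ratio below 0, with a median of -0.39. The median over all 6719 genes tested was 0.03, and 55.1% of them had a ratio above 0. At least 1.5-fold higher in their own zone were 6 of the 24 and 8 of the 29, against 1.24% and 0.729% of all genes tested, and none was 1.5-fold higher in the other zone. Summed over the whole list, pericentral genes had 4377 CPM (4276 to 4480.5) in pericentral, 3720.0 CPM in intermediate and 3265 CPM (3172 to 3360) in periportal nuclei, a log2 ratio of 0.42 (0.37 to 0.48). Periportal genes had 9055 CPM (8909 to 9203), 10051 CPM and 12102 CPM (11923 to 12284) in the same order, a log2 ratio of -0.42 (-0.45 to -0.39). The lists were chosen with earlier results of these data known, so they are no independent evidence of direction. Within 5 ranges of depth per nucleus, the log2 ratio of the pericentral list lay between 0.28 and 0.49 and that of the periportal list between -0.52 and -0.37. The 24 genes named in the next paragraphs had their direction in 118 of 120 combinations of gene and depth range, from the same nuclei that chose them.

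Across all genes, 83 of 6719 tested, or 1.24%, were at least 1.5-fold higher in pericentral nuclei, and 49, or 0.729%, were at least 1.5-fold higher in periportal nuclei. The log2 ratio used a pseudocount of 5 after scaling to equal totals, and its SD over the genes was 0.23. The counting interval of the ratio lay wholly past 1.5-fold for 10 pericentral genes, among them Cyp2c29, Prkag3, Dlec1, Pdk4, Acaa1b, Sult2a8, Scd1 and Cyp7a1, and for 5 periportal genes, among them Hsd17b13, Ctsc, Ass1 and Aspg. Of the genes past 1.5-fold, 61 and 32 were protein-coding, and 10 and 10 belonged to a gene list. The same shares over all 6719 genes were not computed, so these counts say nothing about an excess of either kind. Both directions are described by the 12 protein-coding genes with the largest ratios. With equal numbers of nuclei of both classes in each depth range, an alternative chosen after seeing the data, 43 of 4759 genes tested were past 1.5-fold in pericentral and 40 in periportal nuclei, nearly equal numbers in contrast to 83 and 49, and all 24 named genes stayed past it. Without Cyp2e1 and Hal as markers, 23 and 25 of 3593 genes were past 1.5-fold in pericentral and periportal nuclei, and 14 of the 24 stayed.

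The gene with the largest ratio was Cyp2c29, a drug-metabolizing P450 on chromosome 19 (chr19:39269405-39330713, GRCm38, plus strand). Its 12 peaks held 828 counts in pericentral nuclei and 212 in periportal nuclei. The level was 256 CPM (232 to 282) in pericentral, 146 CPM in intermediate and 73.9 CPM (60.5 to 89.4) in periportal nuclei, a log2 ratio of 1.77 (1.48 to 2.12). A count at Cyp2c29 was present in 47.1% of pericentral nuclei (42.4 to 51.9) and 15.2% of periportal nuclei (12.2 to 18.7). With each nucleus thinned to 2000 counts these shares were 27.5%, 17.5% and 8.20% in pericentral, intermediate and periportal nuclei. Cyp2c29 had no peak at the start of its gene model, and a small peak over a further annotated transcript start had 11 and 7 counts, a ratio of 0.30 (-1.73 to 2.93). Its peaks lay between 17566 and 61229 bp downstream of the start, and 11 of the 12 had a ratio above 0.

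Several enzymes and regulators followed. Pdk4, the kinase that holds back pyruvate oxidation, had 168 CPM (148 to 189), 115 CPM and 78.4 CPM (64.6 to 94.3) in pericentral, intermediate and periportal nuclei, a log2 ratio of 1.08 (0.77 to 1.43). Prkag3, a regulatory subunit of the energy sensor AMPK, had 97.2 CPM (82.6 to 114) in pericentral and 42.5 CPM (32.5 to 54.6) in periportal nuclei, a ratio of 1.16. Scd1, which desaturates stearate, had 196 CPM (175 to 219) and 99.7 CPM (84.0 to 117), a ratio of 0.96. Acaa1b, a peroxisomal thiolase, had 436 and 213 CPM, a ratio of 1.03, and its neighbour Dlec1 had 365 and 166 CPM, a ratio of 1.13. Most counts of both came from the same peak of 10738 bp over the 3′ part of Dlec1, with 1117 and 399 counts, so these values are not separate. Aldh3a2, the fatty aldehyde dehydrogenase, had a ratio of 0.97 and 82.0 against 41.1 CPM.

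Cyp7a1, the rate-limiting enzyme of bile acid synthesis, and Oat, which turns ornithine toward glutamate, were also among the 12. Cyp7a1 had 245 CPM (221 to 270.2), 216 CPM and 129 CPM (111 to 149) in pericentral, intermediate and periportal nuclei, a log2 ratio of 0.91 (0.67 to 1.18). Oat had 125 CPM (108 to 144), 77.3 CPM and 66.2 CPM (53.6 to 81.0), a ratio of 0.90 (0.56 to 1.28). The remaining genes of the 12 were Sult2a8, a sulfotransferase, with a ratio of 0.99, Myl7, a myosin light chain, with 0.97, and Mars2, the mitochondrial methionyl-tRNA synthetase, with 0.91. Mars2 was the 1 gene of the 12 with a ratio under 0 at 0 and 72 h, of -0.14 and -0.58 with intervals over 0.

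**Figure D2:**
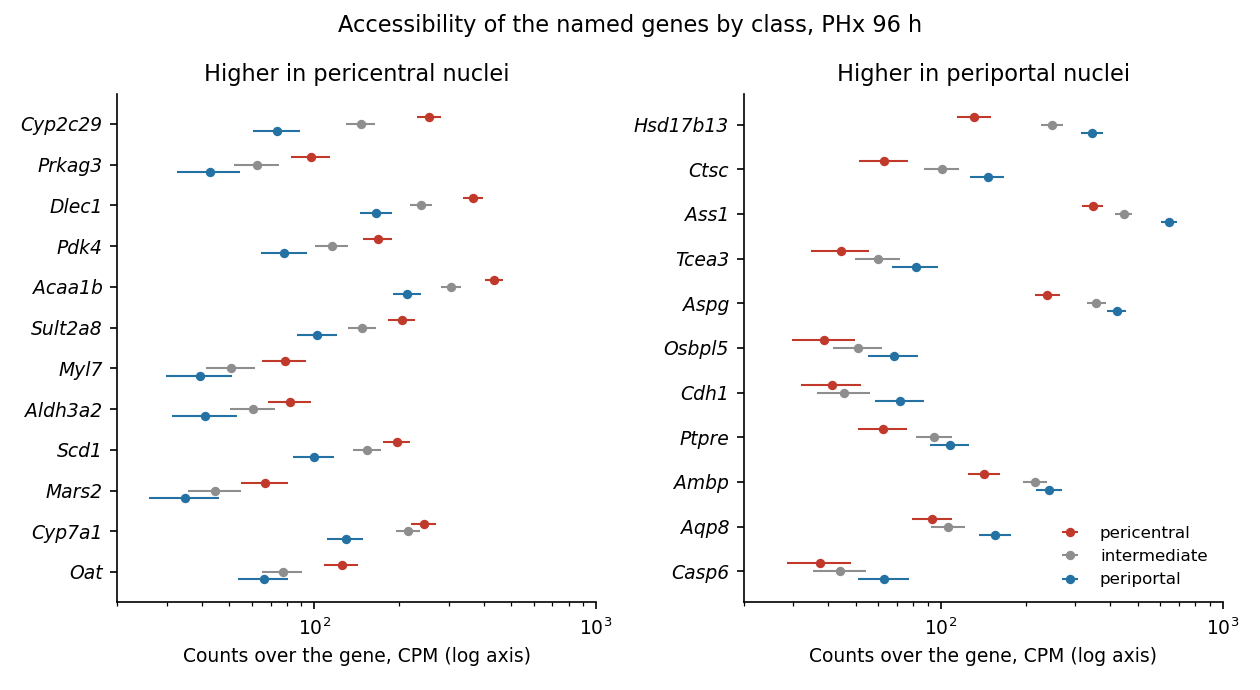
Counts over the protein-coding genes with the largest ratio in each direction, 12 pericentral and 11 of the 12 periportal, in CPM on a log axis (x axis), in pericentral (red), intermediate (grey) and periportal nuclei (blue) at 96 h; bars are 95% counting intervals. The genes were chosen for the gap between the red and blue points, which at Cyp2c29 lay at 256 and 73.9 CPM.

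On the periportal side, Hsd17b13, a lipid droplet protein, led (chr5:103955440-103977410, GRCm38, minus strand). It had 426 counts in pericentral and 989 in periportal nuclei. The level was 132 CPM (115 to 151), 249 CPM and 345 CPM (315 to 377) in pericentral, intermediate and periportal nuclei, a log2 ratio of -1.37 (-1.63 to -1.15). A count at Hsd17b13 was present in 32.3% of pericentral and 48.4% of periportal nuclei, although periportal nuclei had fewer counts each. All 4 of its peaks were lower in pericentral nuclei, with ratios from -1.51 at the promoter to -1.11.

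A urea cycle enzyme and a protease followed. Ass1, which joins citrulline and aspartate, had 346 CPM (318 to 376), 446 CPM and 645 CPM (604 to 688) in pericentral, intermediate and periportal nuclei, a log2 ratio of -0.89 (-1.05 to -0.75). Ctsc, the lysosomal protease cathepsin C, had 63.1 CPM (51.5 to 76.7) and 147 CPM (128 to 168), a ratio of -1.19. Ratios from -0.86 to -0.73 were found at 8 further genes: Tcea3, a transcription elongation factor, Aspg, an asparaginase, Osbpl5, a lipid transfer protein, Cdh1, the E-cadherin of cell junctions, Ptpre, a tyrosine phosphatase, Ambp, the precursor of a plasma protease inhibitor, Aqp8, a water channel, and Casp6, a caspase. Casp6 had a ratio above 0 at 0 h (0.16, -0.04 to 0.36) and in 96 h classes made on thinned nuclei (0.15, -0.79 to 1.14). Osbpl5 had 0.07 (-0.27 to 0.43) at 48 h.

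Along these genes the difference did not sit at the same place. Promoter values sum all peaks that touch the 1000 bp on either side of the gene start, over their whole length. At Hsd17b13 the promoter peak, 7284 bp long, had a log2 ratio of -1.51 (-1.88 to -1.21), and at Ctsc it had -1.92 (-3.13 to -1.23), both with intervals that overlapped those of the whole gene. At Mars2 and Oat the promoter had ratios of 0.93 and 0.80, close to those of the gene. At Cyp7a1 the promoter peak had 26 counts in pericentral and 33 in periportal nuclei, a ratio of -0.44 (-1.69 to 0.62), while peaks 2387 to 6089 bp and 8936 to 15485 bp downstream of the start had 0.94 (0.39 to 1.62) and 0.97 (0.68 to 1.28). The latter also covers the transcript Gm11798. At Ass1 the promoter peak had -0.12 (-0.76 to 0.52), against -1.22 (-1.70 to -0.82) for the peak 21318 to 27725 bp downstream. Promoter ratios near 0 were also found at Dlec1 (-0.18), Prkag3 (0.06) and Ambp (0.10). Of the 23 named genes with a promoter value, 13 stayed past 1.5-fold in the promoter peaks alone and 20 kept their direction.

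**Figure D3:**
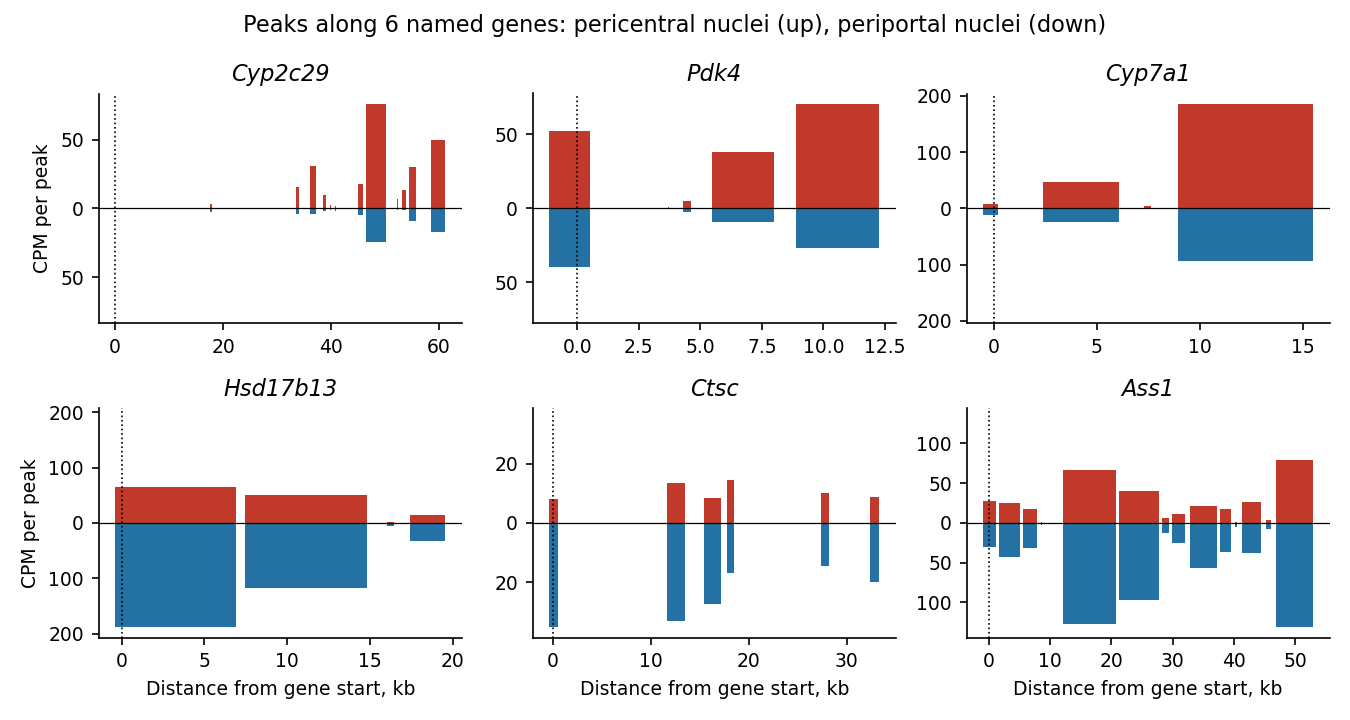
Counts of each peak, in CPM (y axis; pericentral nuclei in red above the line, periportal nuclei in blue below it), by distance from the gene start in kb (x axis, positive in the direction of transcription) along 6 genes at 96 h; each bar spans 1 peak and its height is the sum over that peak. The promoter peak of Ctsc had 8.05 CPM in pericentral and 35.2 CPM in periportal nuclei, while that of Ass1 had 89 and 86 counts.

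When nuclei were placed in 7 bins of the marker share, the levels of both lists differed between its ends, with steps of unequal size. The pericentral list had 3240 CPM (3133 to 3350) at a share of 0, where 411 nuclei lay, and 3337 CPM (3153 to 3530) in the bin just above 0. It had 3575 CPM (3445 to 3707) at 0.2 to 0.4, 3824 CPM (3711 to 3940.5) at 0.4 to 0.6 and 4247 CPM (4109 to 4389) at 0.6 to 0.8. At the top end it had 4470 CPM (4245 to 4705) and, at a share of 1, where 152 nuclei lay, 4553 CPM (4358 to 4756). The periportal list had 11998 CPM (11791 to 12208) at a share of 0 and 12404 CPM (12046.5 to 12769) in the bin just above 0, so its first step went against the rest. It then had 10723, 9569, 9343, 8967 and 8578 CPM, and the intervals of neighbouring bins were apart only on either side of the bin from 0.2 to 0.4. Cyp2c29 was at 63.3 CPM (49.1 to 80.3) at a share of 0, 158 CPM at 0.4 to 0.6 and 271 CPM at 1. Hsd17b13 was at 337 CPM (303 to 374), 219 CPM and 115 CPM in the same bins. The steps were not all in 1 direction: Hsd17b13 had 366 CPM in the bin just above 0, and Oat stayed between 66.1 and 68.7 CPM in the 3 lowest bins before reaching 119 CPM at 0.6 to 0.8. Median depth differed between bins too, from 4512 at a share of 0 to 8162 at 0.8 to 1.

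**Figure D4:**
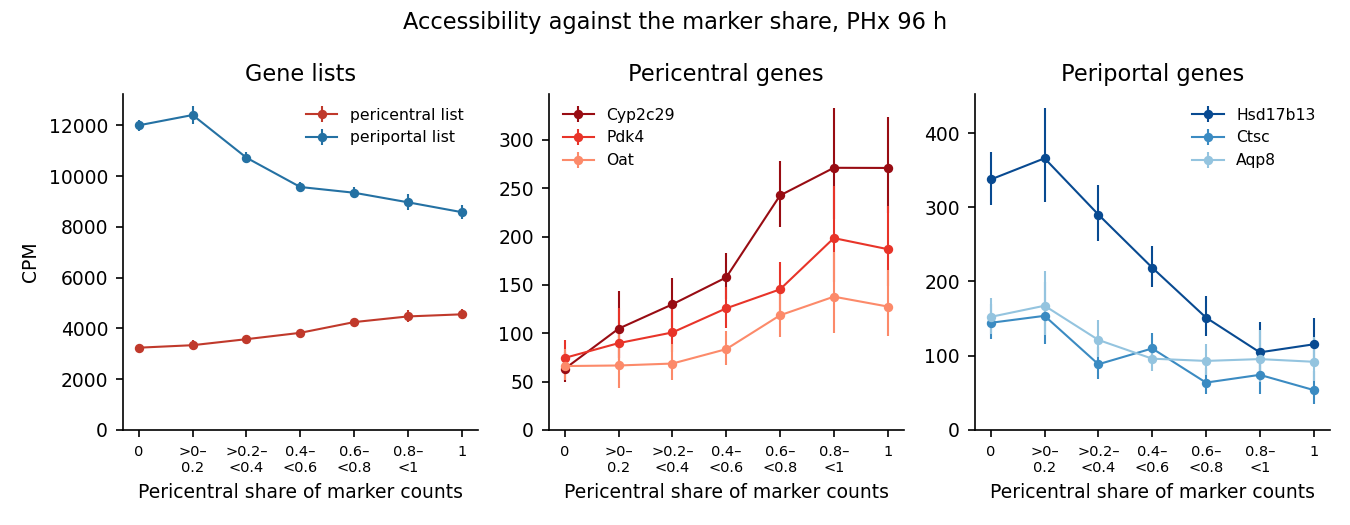
Counts in CPM (y axis) in 7 bins of the pericentral share of marker counts (x axis), for the pericentral and periportal gene lists without the marker genes and for 3 genes of each side at 96 h; bars are 95% counting intervals. Cyp2c29 went from 63.3 CPM at a share of 0 to 271 CPM at a share of 1, and Hsd17b13 from 337 to 115 CPM.

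Pathways differed in how many of their members stood apart, and each list is described by its counts beside the 1.24% and 0.729% of all genes. Of the 8 urea cycle and ammonia genes that met the minimum, 3 were past 1.5-fold in periportal nuclei, among them Ass1 and Asl, and Oat in pericentral nuclei, with a median log2 ratio of -0.43. Cps1, which starts the cycle, had 1309 CPM in pericentral and 1958 CPM in periportal nuclei, a ratio of -0.58 (-0.66 to -0.50), just inside 1.5-fold. Asl, which releases arginine, had 205 and 314 CPM, a ratio of -0.61 (-0.83 to -0.41). The mitochondrial carriers Slc25a15 and Slc25a13 had smaller ratios of -0.28 and -0.15.

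Glucose production was split. Of 13 gluconeogenic genes and regulators, Pck1, the enzyme that makes phosphoenolpyruvate, was past 1.5-fold in periportal nuclei, with 657 CPM in pericentral, 734 CPM in intermediate and 989 CPM in periportal nuclei, a log2 ratio of -0.59 (-0.71 to -0.47). Fbp1, fructose bisphosphatase, had -0.44 (-0.60 to -0.28). G6pc, which releases free glucose, had 194 and 199 CPM, a ratio of -0.03 (-0.27 to 0.20). The regulators Ppargc1a, Creb3l3 and Klf15 had ratios from 0.01 to 0.02. The list's median was 0.01, with a sign that turned under several settings, while its sum had 2658 CPM in pericentral and 3073 CPM in periportal nuclei, a ratio of -0.21 (-0.27 to -0.15). The 18 amino acid breakdown genes had a median of -0.09, which turned sign in thinned nuclei and in promoters only, and none past 1.5-fold. Tat, tyrosine aminotransferase, had -0.53 (-0.69 to -0.38), while Prodh, which oxidizes proline, had 0.56 (0.29 to 0.86).

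Glucose use and fatty acid synthesis leaned to pericentral nuclei in some members only. Of 15 genes, Scd1 and Fasn, the fatty acid synthase, were past 1.5-fold, and the median log2 ratio was 0.20. Among the 15, 8 had a ratio above 0 and 7 below, against 55.1% of all genes above 0. The median was 0.11 with a minimum of 2 marker counts and 0.06 with 8. Fasn had 572 CPM in pericentral, 414 CPM in intermediate and 372 CPM in periportal nuclei, a ratio of 0.62 (0.47 to 0.78). Acly, which makes cytosolic acetyl-CoA, went the other way with 70.9 and 101 CPM, a ratio of -0.51 (-0.88 to -0.15). None of the 8 fatty acid oxidation genes passed 1.5-fold, and their median was 0.18. The 12 genes of cholesterol synthesis and uptake had a median of 0.07, which turned sign in thinned nuclei and with binarised counts, and none past 1.5-fold.

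Among detoxification and bile acid genes, more were past 1.5-fold in pericentral than in periportal nuclei. Of 21 xenobiotic genes, Cyp2c29, Sult2a8 and Gsta3, a glutathione transferase, were past 1.5-fold in pericentral nuclei and Cyp2c70 in periportal nuclei, larger shares than the 1.24% and 0.729% of all genes but from few genes, with a median log2 ratio of 0.15. Gsta3 had 323 and 214 CPM, a ratio of 0.59 (0.39 to 0.80), and Cyp2c70 had 82.3 and 126 CPM, a ratio of -0.60 (-0.95 to -0.28). Cyp3a11, a major P450, had 612.5 and 453.8 CPM, a ratio of 0.43 (0.29 to 0.58), and Por, the reductase that feeds electrons to P450s, had 540.4 and 369.8 CPM, a ratio of 0.54 (0.39 to 0.71). The genes of the Cyp2c, Cyp2d, Cyp3a and glutathione transferase families have near copies, and reads that map to several copies could be split between them or lost. Of 14 bile acid genes, Cyp7a1 was past 1.5-fold, and the median was 0.12, a sign that turned with class limits of 0.5 and 0.3, in thinned nuclei and in promoters only. Cyp27a1, of the alternative route, had a ratio of 0.33 (0.09 to 0.57), and Baat, which conjugates bile acids, had -0.52 (-0.83 to -0.22).

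None of the 20 Wnt pathway genes that met the minimum was past 1.5-fold, and their median was 0.10. Lgr5, a receptor for R-spondins, had 96.9 CPM in pericentral and 66.9 CPM in periportal nuclei, a log2 ratio of 0.52 (0.16 to 0.92). Tbx3, a pericentral transcription factor, had 0.43 (0.06 to 0.82), and Axin2, a feedback inhibitor, had 66.2 and 53.7 CPM, a ratio of 0.29 (-0.13 to 0.74) whose interval included 0. Tcf7l1, a DNA-binding partner of beta-catenin, went the other way with -0.40 (-0.64 to -0.18). Sp5, a Wnt target under the minimum, had 185 and 91 counts, a ratio of 0.82 (0.32 to 1.40).

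Most general hepatocyte genes had ratios near 0. None of the 21 hepatocyte transcription factors was past 1.5-fold, their median was -0.03, and Hnf4a had 484 and 506.5 CPM, a ratio of -0.07 (-0.21 to 0.08). The 10 hepatocyte markers had a median of -0.06, which turned sign in thinned nuclei, with Alb, the albumin gene, at -0.33 (-0.45 to -0.22) and Fgb, a fibrinogen chain, at -0.58 (-0.71 to -0.45). Among 8 fetal state and progenitor genes that met the minimum, Tnfrsf12a, the TWEAK receptor, was past 1.5-fold in periportal nuclei with -0.59 (-1.04 to -0.17), and the median was 0.05, with a sign that turned with limits of 0.8 and 0.1, in thinned nuclei, with binarised counts and in promoters only. Only 3 of 21 proliferation genes met the minimum, with ratios from -0.23 at Cdk1 to 0.37 at Ccnd1, and Mki67, a marker of dividing cells, had 28.5 and 28.2 CPM. Summed over all proliferation genes, the level was 795 CPM (753 to 840.1) in pericentral and 671 CPM (629 to 715) in periportal nuclei, a log2 ratio of 0.25 (0.12 to 0.37). In 96 h classes made on thinned nuclei, the sum over the genes had 0.15 (-0.08 to 0.39), an interval that included 0. The list median of 0.15 turned sign without Cyp2e1 and Hal and with binarised counts, and was 0.46 with a minimum of 8 marker counts.

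Markers of other liver cell types were low in both classes. Summed over their lists, endothelial markers had 224 CPM (201 to 248) in pericentral and 246 CPM (221 to 274) in periportal nuclei, stellate markers had 214 and 224 CPM, and cholangiocyte markers had 251 and 253 CPM. The Kupffer and other immune list had 95.9 CPM (81.4 to 112) and 126 CPM (108 to 146), with 10 of its 14 genes without a peak. Its log2 ratio was -0.40 (-0.71 to -0.08), off 0, while the ratio intervals of the other 3 lists included 0. The part of immune markers in the gene ratios was not tested beyond leaving out nuclei. Without the 20 nuclei of the library that had more non-parenchymal than hepatocyte marker counts, 83 and 51 of 6690 genes tested were past 1.5-fold.

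**Figure D5:**
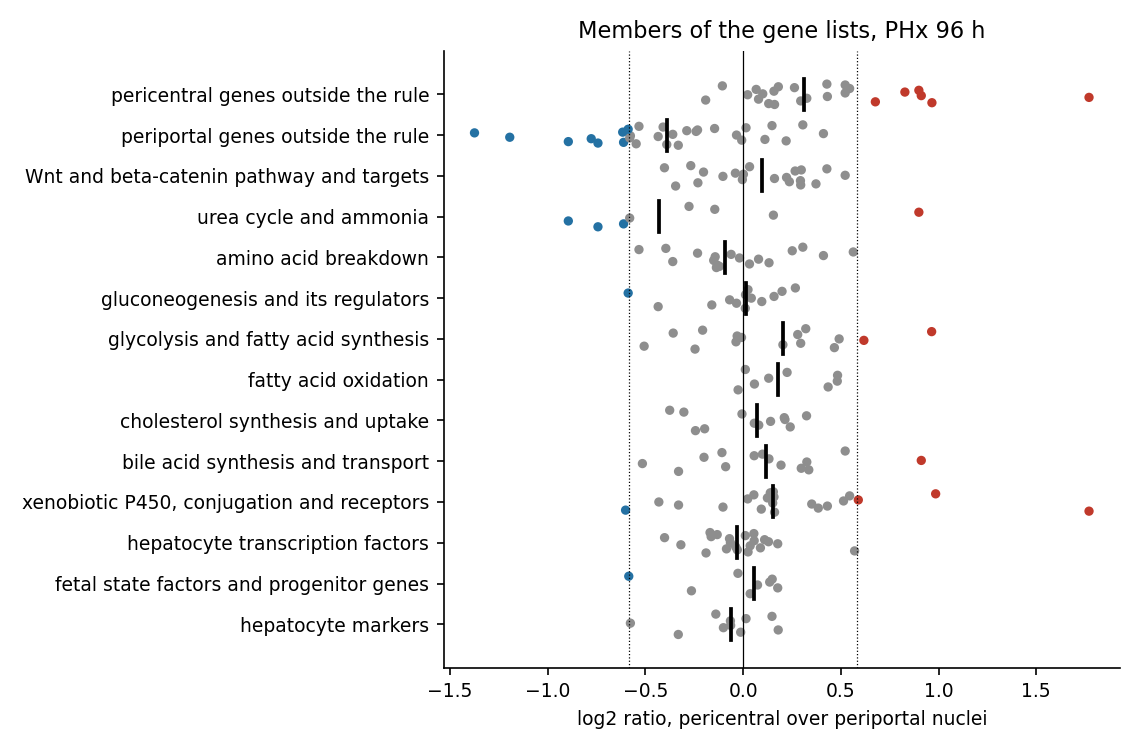
Log2 ratio of pericentral over periportal nuclei at 96 h (x axis) for each member (points) of the 14 gene lists with at least 8 members that met the minimum; black bars are list medians, dotted lines mark 1.5-fold, and red and blue points lie past it. The medians were 0.31 and -0.39 for the pericentral and periportal lists and -0.43 for the urea cycle, against 0.03 for all genes.

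Distal peaks, more than 2000 bp from every gene start and outside the marker windows, also differed between the classes. Of 7165 peaks with at least 100 counts, 46, or 0.642%, were at least 2-fold higher in pericentral nuclei, and 39, or 0.544%, were at least 2-fold higher in periportal nuclei. The interval of the ratio lay wholly past 2-fold for 9 and 1. A gene lay under 33 of the 46 and 32 of the 39, and the share over all 7165 peaks was not computed. The nearest coding gene was 1 of the named genes for 12 and 10 of them. The named genes were chosen on sums that include some of these peaks, so this overlap is no separate result. Within 100 kb of a marker gene lay 0 and 1 of these peaks, and the summed peaks around each marker but outside its window had ratios from -0.30 to 0.16, with intervals over 0 except at Gls2 (-0.20, -0.41 to -0.00). Around Hal there was 1 such peak, with 1 count.

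The strongest pericentral peaks lay at the pericentral genes above. The peak with the largest ratio was inside Cyp2c29 (chr19:39305539-39306677), with 99 counts in pericentral and 11 in periportal nuclei, or 30.6, 11.1 and 3.83 CPM in pericentral, intermediate and periportal nuclei, a log2 ratio of 2.54 (1.73 to 4.59). A peak past the 3′ end of Oat (chr7:132554022-132557329), 19069 bp from its start, had 369 and 58 counts, a ratio of 2.40 (1.93 to 3.12). The whole Oat gene had a ratio of 0.90, so this peak outside the gene window differed more than the gene. A second peak, inside Oat (chr7:132557908-132559672), had 115 and 23 counts, a ratio of 1.94. Around Pdk4, a peak downstream of the gene (chr6:5481043-5482799) had 150 and 21 counts, a ratio of 2.41, and one inside it (chr6:5488321-5490848) had 124 and 27 counts, a ratio of 1.85. A peak over the 3′ end of Prkag3 (chr1:74738622-74742140) had 222 and 50 counts, a ratio of 1.88 (1.34 to 2.67). It lay 1813 bp from an annotated transcript start of Cyp27a1, a bile acid enzyme.

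On the periportal side, the peak with the largest ratio (chr7:130264988-130266745) had 27 counts in pericentral and 121 in periportal nuclei, or 8.36, 15.3 and 42.2 CPM in pericentral, intermediate and periportal nuclei, a log2 ratio of -2.12 (-3.31 to -1.47). It covers a transcript start of Fgfr2, a fibroblast growth factor receptor, and counted as distal because the start of the annotated Fgfr2 gene model lies elsewhere. A peak at Slc16a7, a monocarboxylate transporter (chr10:125328136-125329157), also covered a transcript start and had 33 and 86 counts, a ratio of -1.41. A peak inside Ctsc (chr7:88293481-88295218) had 27 and 78 counts, a ratio of -1.52. A peak inside Cyp2c70 (chr19:40167609-40168841) and one inside Sap130 each had 27 and 73 counts, a ratio of -1.43. A peak near Ncam2, a neural adhesion molecule (chr16:81187202-81188366), had 35 and 92 counts, a ratio of -1.43 (-2.45 to -0.74). Annotated transcript starts lay within 2000 bp of 11 of the 46 pericentral and 12 of the 39 periportal peaks, against 1541 of all 7165.

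The 300 bp at the centre of 3 peaks of each side are printed to show the DNA behind these ratios: the Cyp2c29 and Oat peaks and the Prkag3 peak for the pericentral side, and the Fgfr2 start, Cyp2c70 and Ncam2 for the periportal side. They are the plus strand of GRCm38.p6 (RefSeq), 5′ to 3′, at chr19:39305958-39306257, chr7:132555525-132555824, chr1:74740231-74740530, chr7:130265716-130266015, chr19:40168075-40168374 and chr16:81187634-81187933. Capitals mark matches to the short words searched, on either strand, which are listed after the sequences.
Cyp2c29 pericentral peak: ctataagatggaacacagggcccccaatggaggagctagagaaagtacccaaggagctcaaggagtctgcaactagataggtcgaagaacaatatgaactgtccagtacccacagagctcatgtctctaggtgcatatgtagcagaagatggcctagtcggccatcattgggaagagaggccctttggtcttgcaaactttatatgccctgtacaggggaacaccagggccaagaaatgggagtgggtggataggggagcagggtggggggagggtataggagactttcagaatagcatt
Oat pericentral peak: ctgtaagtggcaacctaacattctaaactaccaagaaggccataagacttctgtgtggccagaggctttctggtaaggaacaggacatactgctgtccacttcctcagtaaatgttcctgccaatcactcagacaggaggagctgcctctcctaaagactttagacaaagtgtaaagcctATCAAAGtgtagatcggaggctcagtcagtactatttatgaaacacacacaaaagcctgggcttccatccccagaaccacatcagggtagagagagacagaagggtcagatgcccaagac
Prkag3 pericentral peak: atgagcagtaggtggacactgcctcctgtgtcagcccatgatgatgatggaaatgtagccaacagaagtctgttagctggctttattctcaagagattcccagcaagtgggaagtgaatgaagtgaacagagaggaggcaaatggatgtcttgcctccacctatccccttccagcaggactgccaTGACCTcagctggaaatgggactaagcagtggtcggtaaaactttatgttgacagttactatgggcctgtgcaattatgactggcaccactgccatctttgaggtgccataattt
Fgfr2 start periportal peak: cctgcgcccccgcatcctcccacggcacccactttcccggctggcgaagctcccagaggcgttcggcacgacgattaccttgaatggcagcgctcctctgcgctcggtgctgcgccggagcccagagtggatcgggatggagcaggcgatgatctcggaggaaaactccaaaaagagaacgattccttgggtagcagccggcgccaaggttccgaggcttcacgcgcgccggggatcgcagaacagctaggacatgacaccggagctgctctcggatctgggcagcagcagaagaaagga
Cyp2c70 periportal peak: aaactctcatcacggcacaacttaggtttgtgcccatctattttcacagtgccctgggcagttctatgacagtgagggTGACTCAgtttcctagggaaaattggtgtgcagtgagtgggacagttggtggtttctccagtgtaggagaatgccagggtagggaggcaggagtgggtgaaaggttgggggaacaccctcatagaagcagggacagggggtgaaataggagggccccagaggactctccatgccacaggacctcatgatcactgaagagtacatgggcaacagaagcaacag
Ncam2 periportal peak: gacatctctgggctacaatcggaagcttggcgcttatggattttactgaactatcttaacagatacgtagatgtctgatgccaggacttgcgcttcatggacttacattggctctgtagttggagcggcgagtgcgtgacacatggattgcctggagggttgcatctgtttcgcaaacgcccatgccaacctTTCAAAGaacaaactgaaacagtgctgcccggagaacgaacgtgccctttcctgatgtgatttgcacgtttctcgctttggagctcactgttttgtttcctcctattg

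In these windows, the Oat peak held a TCF/LEF word at position 181, the Prkag3 peak a nuclear receptor word at 186, the Cyp2c70 peak an AP-1 word at 79 and the Ncam2 peak a TCF/LEF word at 193, counted from the first base. The Cyp2c29 and Fgfr2 windows held none of the words. The Cyp2c29 window was 94.7% repeat-masked, and that of Fgfr2 had a GC content of 63.3%, against a mean of 50.6% over all 7165 windows. A match is a description of letters, not a binding site, and no match says only that these words are not in this window.

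The words searched on both strands were CTTTGAT and CTTTGAA for TCF/LEF, the DNA-binding partners of beta-catenin, AGGTCA for nuclear receptors, TGTTTAC and TGTTTGC for FOXA, TGAGTCA and TGACTCA for AP-1, CAAAGTCCA and CAAAGTTCA for HNF4A and TTGCGCAA, TTGTGCAA and TTGCACAA for CEBP, beside longer words for HNF1 and CTCF. Words of different factors can overlap, as they did for 43 of the 870 TCF/LEF matches over all windows. A TCF/LEF word lay in 17.4% of the pericentral windows (8 of 46, 7.82 to 31.4), 17.9% of the periportal windows (7 of 39, 7.54 to 33.5) and 11.4% of all windows, and the intervals of both sides overlapped and included the value of all windows. A nuclear receptor word lay in 23.9%, 28.2% and 24.4%, a FOXA word in 13.0%, 15.4% and 14.6%, and an AP-1 word in 13.0%, 7.69% and 7.19% of pericentral, periportal and all windows. An HNF4A word lay in 2.17%, 2.56% and 2.43%. CEBP and CTCF words were in none of the windows of either side, against 1.81% and 0.544% of all, and the HNF1 word was in none of the 7165. Windows more than 50% repeat-masked made up 15.2% of the pericentral, 5.13% of the periportal and 4.34% of all windows.

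The same contrast was made within each other library, with nuclei thinned to 2000 counts for the choice of classes and with ratios on the deposited counts, so only the total count behind the choice was equal between times. The pericentral nuclei so chosen had a median of 37065 deposited counts at 0 h and 5473 at 96 h. The rule then found 455 pericentral and 819 periportal nuclei at 0 h, 320 and 296 at 48 h, 144 and 227 at 72 h, and 140 and 164 at 96 h. Peaks were called in each library on its own, and those over the marker genes covered 27662 bp (pericentral) and 43174 bp (periportal) at 96 h against 91255 and 136959 bp at 0 h, so shares of nuclei cannot be compared between times apart from peak calling. Each time point is a separate preparation, and time and preparation cannot be told apart. Of the barcode sequences at 96 h, 852, 681 and 762 were also among those of 0, 48 and 72 h.

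Most genes named at 96 h had the same direction in the other libraries. Of the 12 pericentral genes, 11, 12 and 11 had a ratio above 0 at 0, 48 and 72 h, and of the 12 periportal genes 11, 11 and 12 had a ratio below 0. Over all genes that met the minimum in both libraries, 60.4%, 57.3% and 63.4% had the sign they had at 96 h. At 72 h only 3 and 4 of the named genes met the minimum of 300 counts.

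The size of the ratio differed between genes and times, and these differences between times were not tested. The 96 h values here are from classes made on thinned nuclei like those of the other times, so they depart from the ratios given above. Cyp2c29 had log2 ratios of 2.50, 2.83, 2.04 and 1.93 (1.43 to 2.66) at 0, 48, 72 and 96 h. Oat had 2.45, 2.60, 1.65 and 1.33 (0.66 to 2.29). Pdk4 had 1.94, 1.70, 0.91 and 1.52, and Hsd17b13 had -2.14, -2.24, -0.98 and -1.49 in the same order. Other genes had their smallest ratio at 0 h: Scd1 had 0.13, 1.66, 0.40 (-0.07 to 0.90) and 1.16 at 0, 48, 72 and 96 h, so its interval at 72 h included 0, and Ass1 had -0.27, -1.52, -0.71 and -1.16. Over the same genes, the median of the pericentral list was 0.78, 0.64 and 0.49 at 0, 48 and 72 h, and that of the periportal list was -0.45, -0.70 and -0.46. With the 96 h nuclei thinned in the same way, those medians were 0.54 and -0.43.

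Distal peaks followed the genes in part. Of the pericentral peaks of 96 h with at least 100 counts in overlapping peaks at the other time, 37 of 46 had a ratio above 0 at 0 h, 36 of 44 at 48 h and 13 of 14 at 72 h. Of the periportal peaks, 9 of 39, 10 of 38 and 0 of 9 had a ratio above 0, against 44.8%, 48.9% and 45.6% of all distal peaks tested. Several 96 h peaks can fall in 1 longer peak of another time, as both Oat peaks and both Pdk4 peaks did at 0 h. Counting each such peak once, 33 of 42, 33 of 41 and 11 of 12 pericentral and 9 of 35, 9 of 32 and 0 of 6 periportal peaks had a ratio above 0. The Cyp2c29 peak had log2 ratios of 3.32 (2.97 to 3.86) at 0 h and 3.33 (2.86 to 4.15) at 48 h, and the peak at the Fgfr2 start had -2.20 (-2.65 to -1.86) and -1.45 (-2.41 to -0.84). Of the 6 named periportal peaks, 3 had no ratio under 0 at 0 and 48 h. The peak inside Cyp2c70 had 0.03 (-0.44 to 0.51) and 0.01 (-0.22 to 0.25), that inside Sap130 had 0.20 (-0.05 to 0.45) and 0.70, and that at the Slc16a7 start had 0.29 (0.00 to 0.58) and 0.25 (-0.32 to 0.87). At 72 h these 3 peaks had 0.02, -0.50 and -0.04, with intervals over 0.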

How the data were processed

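The deposited files were, for each of 4 libraries, a matrix of whole-number counts of transposase cut sites per peak and barcode, which the authors made with Cell Ranger ATAC (version 1.1.0 per the file header; mm10 per the submitters' processing notes). Of the deposited counts at 96 h, 87.3% were even. Peaks were called per library. The sources used here do not give the authors' filter on nuclei in numbers, and no doublet caller was run here.

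Genes (GENCODE vM21) summed all peaks over the body and 2000 bp upstream; 17 genes that share a peak with a marker gene were left out. Class sums were scaled to the smaller total outside marker peaks (3231014 and 2868808 counts in pericentral and periportal nuclei), and log2 ratios used a pseudocount of 5. Genes needed 300 and distal peaks 100 counts in both classes together. Intervals were exact Poisson (CPM), conditional binomial (ratios) and Clopper-Pearson (shares), the first 2 kinds on counts divided by 2. The named genes were the 12 protein-coding genes and 6 distal peaks with the largest ratio in each direction, and from each list members with the most counts or largest ratios. Members, lists and rules were chosen with earlier results of these data known. The ratio and its interval were tested on simulated even counts, drawn from the counting model that the interval assumes. The simulation had no spread between nuclei and no odd counts, so coverage in the real data was not tested. Sequences were read from RefSeq GRCm38.p6, inside whose chromosomes all 77580 peaks of 96 h lie. Python 3.11.15, numpy 2.4.6, pandas 2.3.3, scipy 1.17.1, pysam 0.24.0 and matplotlib 3.10.9 were used. Alternatives changed the depth and marker minimums, class limits, markers, scaling, pseudocount, gene window and count minimums. Results for a few members of the lists are not reported here.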

Additional observations from a re-analysis of the deposited data

Results flagged for a closer look

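The glycolysis and fatty acid synthesis list, summed over its genes, had a log2 ratio of pericentral over periportal nuclei of -0.16 (-0.18 to -0.14) at 0 h and 0.21 (0.11 to 0.32) at 96 h in classes made the same way. The sum has opposite signs at these times, while the median over the same genes was above 0 at both, 0.09 and 0.16, so the direction depends on how the list is summarised. At 48 and 72 h the sum had 0.34 and 0.11. Fasn had -0.37 at 0 h against 0.61 at 96 h, and Elovl5, a fatty acid elongase, had -0.36 against 0.48. The difference between the times was not tested, since each time point has 1 library.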

How the results depend on the processing

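With 1 library, depth limits single genes: thinning left 144 genes and 55 distal peaks to test, against 6719 and 7165. No paired analysis was possible because each time point has 1 library and no result comes from a test. Leaving out a replicate was likewise not possible.

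All 24 named genes stayed past 1.5-fold with minimums of 1000 or 3000 counts per nucleus, limits of 0.8 and 0.1, marker fragments, either pseudocount, scaling to the median and equal depth ranges. Of them, 14 did without Cyp2e1 and Hal as markers, 20 in thinned nuclei, 20 with binarised counts and 19 with limits of 0.5 and 0.3. The reported values were 437 and 500 nuclei (pericentral and periportal), 83 and 49 genes, 46 and 39 distal peaks, and list medians of 0.31 and -0.39.

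With 2 marker counts, there were 664 and 845 nuclei, and the periportal median was -0.35. With 8 marker counts, there were 237 and 173 nuclei, 51 and 47 of 2674 genes tested and 25 and 17 of 2052 distal peaks. The medians were 0.50 and -0.53, and that of proliferation 0.46. With limits of 0.8 and 0.1, there were 228 pericentral nuclei, 52 and 54 of 3331 genes tested, so the pericentral excess was gone, 26 and 26 of 2780 distal peaks, and medians of -0.095 for fetal state, -0.10 for gluconeogenesis and 0.35 for proliferation. With limits of 0.5 and 0.3, there were 707 pericentral nuclei, medians of 0.24 and -0.34, and a bile acid median of -0.012. In thinned nuclei, there were 140 and 164 nuclei, 5 and 13 of 144 genes, 4 and 2 of 55 distal peaks, and a pericentral median of 0.43. Signs turned there for amino acid breakdown (0.072), cholesterol (-0.065), bile acid (-0.046), hepatocyte markers (0.0059) and Casp6 (0.24). Without Cyp2e1 and Hal, there were 269 and 248 nuclei, 23 and 25 of 3593 genes and 15 and 11 of 3014 distal peaks. The medians were then 0.22 and -0.26, and that of proliferation -0.11. Without the 5% of nuclei with the most counts, 61 and 44 of 5304 genes and 32 and 23 of 5255 distal peaks were left. With binarised counts, there were 30 and 24 of 6228 genes, 27 and 18 of 7190 distal peaks, and medians of 0.25 and -0.36. Cholesterol then had a median of -0.081, proliferation -0.041 and fetal state -0.10. With promoters only, there were 67 and 25 of 3185 genes tested and a pericentral median of 0.086. Medians were 0.015 for amino acid breakdown and -0.24 for bile acids, and signs turned for Dlec1 (-0.18), Cyp7a1 (-0.44) and Ambp (0.10). With no count minimum, 1313 and 1326 of 23621 genes and 1530 and 1989 of 57541 distal peaks passed. A gene minimum of 1000 counts gave 12 and 18 of 988 genes, and a peak minimum of 200 counts gave 12 and 6 of 1613 peaks. With distal set at 10000 bp, 25 and 25 of 4526 peaks passed. The causes of these shifts were not tested.

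Chosen after seeing the data, equal numbers of nuclei in each depth range gave 43 pericentral and 40 periportal genes and 29 and 26 distal peaks among 4759 genes and 4497 peaks tested, and distance from every transcript start gave 35 and 27 of 5624 distal peaks.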
